A study of Arabidopsis thaliana with 4 samples.

Results

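The nuclear genes for the photosynthetic electron transport chain of the chloroplast were examined in rosette leaves of Arabidopsis thaliana that over-express a wheat kinase. They were chosen by locus, as the genes of photosystem I and photosystem II subunits, the photosystem I antenna proteins LHCA1 to LHCA6, plastocyanin, the Rieske protein, ferredoxin, ferredoxin-NADP reductase (FNR), the plastid ATP synthase and PGR5. The list held 41 loci, of which 40 had a probe among the 21500 gene probes of the array. PSBTN (AT3G21055) was not analysed here. The 2 FNR genes had spots flagged as outliers on both OX7 arrays and did not enter the fit, which left 38 members among 18854 genes tested.

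OX17 and OX7 were primary (T1) transformants of Col-0, each from its own transformation event and sampled as a single 3-week-old plant, expressing TaSK5, a GSK3/Shaggy-like kinase of wheat, from the 35S promoter, which is active in most plant tissues. The untransformed wild type was also Col-0 and of the same age, and all plants grew at 22 °C in a cycle of 16 h light and 8 h dark. Total RNA of each transformant was hybridised with wild-type RNA to 2 two-colour Agilent arrays with the dyes exchanged, so that replicate 1 carried the transformant in Cy5 and replicate 2 carried it in Cy3. These 2 arrays were repeat hybridisations and counted as 1 replicate, which gave n = 2 transformants. Whether both transformants were compared with the same wild-type RNA is not given in the labels, so a difference between array pairs can lie in either channel.

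Photosystem II takes electrons from water and passes them through plastoquinone to the cytochrome b6f complex, which holds the Rieske iron-sulphur protein. Plastocyanin carries them on to photosystem I, and ferredoxin and FNR take them from there to NADP. The proton gradient built along the way drives the ATP synthase. The subunits listed here are encoded in the nucleus and imported into the chloroplast, where they join subunits encoded by the plastid genome, and their transcripts are among the most abundant of a green leaf.

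Each value below is a log2 ratio of transformant over wild type after background correction and loess normalisation, so 0 means equal signal and -1 means 2-fold lower signal in the transformant. The share of gene probes well above background ran from 86.4% to 95.9% for TaSK5 RNA and from 88.9% to 96.0% for wild-type RNA, and all 40 member probes were so in both channels of all 4 arrays. In bulk leaf RNA, fewer cells of a type and less RNA per cell cannot be told apart. All 7 leaf markers chosen for the check of the tissue were well above background on every array, as were 5 of 6 root markers, so this flag did not separate tissues. The brightest probes reached the upper limit of the scanner, which saturates a spot and compresses its ratio. Of 31 gene probes saturated in a channel on any array, 12 were members. On OX7 replicate 2 all 12 were saturated in the wild-type channel, and 4 of them in both channels. Member spots gave 11 saturated readings in the TaSK5 channel and 24 in the wild-type channel, out of 160 in each. A spot saturated in the wild-type channel alone gives an upper bound of the ratio before normalisation, and one saturated in the TaSK5 channel alone gives a lower bound.

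PSAF (AT1G31330), PSBR (AT1G79040) and PSBW (AT2G30570) were saturated in both channels on 3 of the 4 arrays. All 3 had the same log2 ratios there, -0.55 on OX17 replicate 1, 0.75 on OX7 replicate 1 and 0.85 on OX7 replicate 2, which are the loess correction at the top of the scale and not measured differences. Their wild-type channel was also saturated on OX17 replicate 2, so no fold change is given for them. They remain in the counts below, and counts without them cover 35 members.

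In the comparison of both transformants with wild type, 0 of 38 members passed the limma test at a Benjamini-Hochberg adjusted p under 0.05, as did 0% of all genes. Adjusted p of members ranged from 0.846 to 0.997. At an unadjusted p under 0.05 there was 1 member, FD1, where the share over all genes was 4.38%. None of the members was higher on all 4 arrays and 4 were lower, PSBQ1, PETC, FD1 and LHCA5, against 12.1% and 12.0% of all genes. With loess normalisation the share of members lower on all 4 arrays, 10.5%, was thus close to that of all genes. It depended on the processing. With median centring 13 members were lower on all 4 arrays, where 10.2% of all genes were. Without normalisation 14 members were, where 6.66% of all genes were. The median of the 38 mean log2 ratios was -0.20, against -0.01 for all genes tested. A mean of size 0.5 or more was reached by 5 members, where 7.81% of all genes reached it.

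With loess normalisation the medians of the 2 transformants lay on opposite sides of wild type. In OX17 the members had a median log2 ratio of -0.60, with -0.59 on replicate 1 and -0.58 on replicate 2. In OX7 the median was 0.29, with 0.35 and 0.25 on the 2 arrays. Both OX17 arrays were below 0 for 31 members, where 32.8% of all genes were, and 0 members were above 0 on both, where 31.0% of all genes were. Both OX7 arrays were above 0 for 28 members, where 29.9% of all genes were, and both were below 0 for 5, where 30.8% of all genes were. Without the 3 saturated members the counts were 31 and 25 of 35. The OX7 direction depended on the processing. With median centring the OX7 median was -0.0218, where that of all genes was -0.0497. Without normalisation the OX7 median was -0.55, where that of all genes was -0.58. Members above 0 on both OX7 arrays numbered 10 and 0 in these settings, and 16 with all saturated spots left out. The share of all genes above 0 on both OX7 arrays was not counted in these settings.

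The gap between the transformants was the most regular feature of the group. The mean log2 ratio was lower in OX17 than in OX7 for 38 of 38 members, where 50.2% of all genes were lower. All OX17 arrays lay below all OX7 arrays for 36 members (34 of 35 without the saturated members), against 26.0% of all genes, and none had them all above, against 25.8%. The 2 exceptions were PSBR and FD1, whose arrays overlapped. Over all genes, the arrays of the transformants did not overlap, in either direction, for 51.7%. The median difference of OX17 minus OX7 was -0.94. Repeat arrays of the same transformant differed by a median of 0.18 in OX17 and 0.17 in OX7 over the members. Each transformant was a single plant, so no test of the difference between plants was run.

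**Figure D1:**
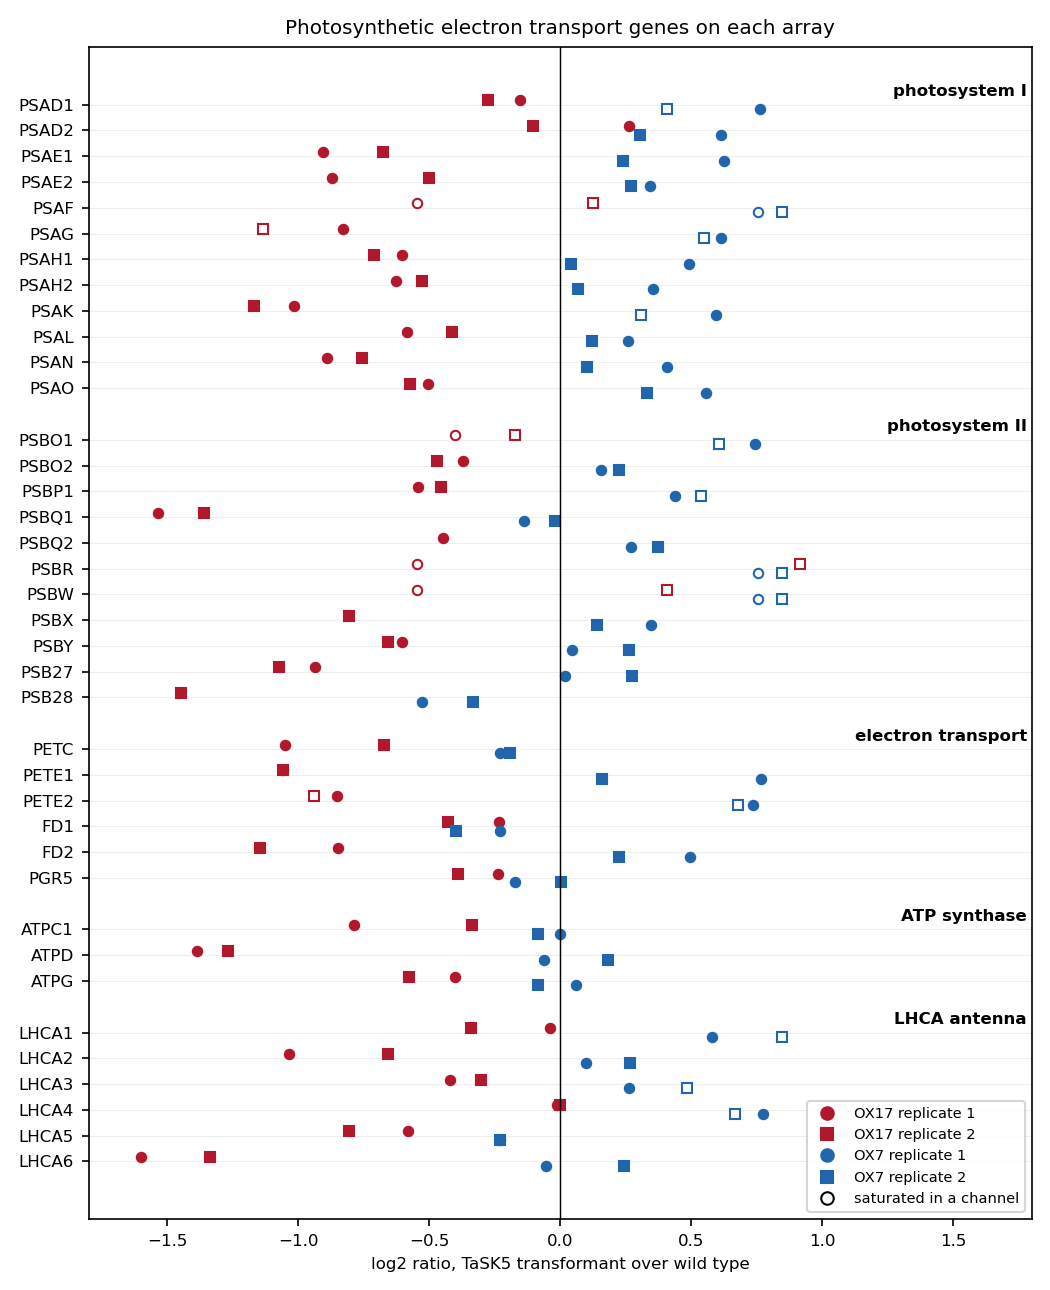
Log2 ratio of transformant over wild type (x axis) for each of the 38 members tested (y axis, by complex), with OX17 in red, OX7 in blue, replicate 1 as circles and replicate 2 as squares; open symbols are spots saturated in a channel. The red points lie left of the blue ones for 36 members, and PSAF, PSBR and PSBW share 3 of their values.

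Photosystem I had 12 members, which bind ferredoxin on the stromal side, plastocyanin on the lumenal side or the antenna at the flanks. All 12 read above 0 on both OX7 arrays and 10 were below 0 on both OX17 arrays. For PSAD1, PSAF, PSAG and PSAK the wild-type channel was saturated on OX7 replicate 2, so the sign there is not fixed. The complex had a median of -0.62 in OX17 and 0.44 in OX7. Of the subunits that dock ferredoxin, PSAD1 (AT4G02770) had log2 ratios of -0.15 and -0.28 on the OX17 arrays and 0.76 and 0.41 on the OX7 arrays. The wild-type channel of PSAD1 was saturated on OX7 replicate 2. Its paralogue PSAD2 (AT1G03130) had 0.26 and -0.10 on the OX17 arrays and 0.61 and 0.31 on the OX7 arrays, and was the one member without saturated spots that had an OX17 array above 0. PSAD2 was the photosystem I gene with the smallest gap between the transformants, -0.38.

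PSAE1 (AT4G28750), which also sits at the ferredoxin side, had log2 ratios of -0.90 and -0.68 on the OX17 arrays and 0.62 and 0.24 on the OX7 arrays. PSAE2 (AT2G20260) had -0.87 and -0.50 on the OX17 arrays and 0.34 and 0.27 on the OX7 arrays. The arrays of the 2 paralogues overlapped within each transformant, and both had OX17 arrays below all OX7 arrays. The pair PSAH1 (AT3G16140) and PSAH2 (AT1G52230), which encode the subunit where LHCII docks in state transitions, was also alike. PSAH1 had -0.61 and -0.71 on the OX17 arrays and 0.49 and 0.04 on the OX7 arrays. PSAH2 had -0.63 and -0.53 on the OX17 arrays and 0.35 and 0.07 on the OX7 arrays.

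The widest gaps in photosystem I belonged to PSAG and PSAK, the subunits on the side of the antenna. PSAG (AT1G55670) had log2 ratios of -0.83 and -1.13 on the OX17 arrays and 0.61 and 0.55 on the OX7 arrays, with 2 wild-type spots saturated. PSAK (AT1G30380) had -1.02 and -1.17 on the OX17 arrays and 0.59 and 0.31 on the OX7 arrays, with 1 wild-type spot saturated, and the lowest mean of the complex, -0.32 ± 1.09 (SD, n = 2 transformants). In both genes signal was about 2-fold lower in OX17 and read above wild type in OX7. Their wild-type channel was saturated on OX7 replicate 2, so the sign there is not fixed. PSAN (AT5G64040), a lumenal subunit on the plastocyanin side, had -0.89 and -0.76 on the OX17 arrays and 0.41 and 0.10 on the OX7 arrays. PSAL and PSAO, which take part in LHCII docking, had OX17 means of -0.50 and -0.54 and OX7 means of 0.19 and 0.44. PSAF, a docking subunit for plastocyanin, is not ranked because of its saturated spots, and PSAD2 had the highest mean of the rest of the complex, 0.27 ± 0.27.

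Photosystem II had 11 members tested, which form or stabilise the oxygen-evolving side of the complex, belong to its small subunits or act in its assembly. The complex had a median of -0.50 in OX17 and 0.24 in OX7, with 6 members below 0 on both OX17 arrays and 9 above 0 on both OX7 arrays. The OX7 count includes PSBO1, PSBP1, PSBR and PSBW, whose wild-type channel was saturated on OX7 replicate 2. PSBQ2, PSBX and PSB28 each had 1 flagged OX17 spot, which kept them out of the OX17 count. PSBO1 (AT5G66570), the main manganese-stabilising protein, had log2 ratios of -0.40 and -0.17 on the OX17 arrays and 0.74 and 0.60 on the OX7 arrays. Both OX17 values of PSBO1 rest on a spot saturated in 1 channel, the TaSK5 channel on replicate 1 and the wild-type channel on replicate 2, so the sign on replicate 1 is not fixed. The wild-type channel of PSBO1 was also saturated on OX7 replicate 2, so the sign there is not fixed either. Its paralogue PSBO2 (AT3G50820) had -0.37 and -0.47 on the OX17 arrays and 0.15 and 0.22 on the OX7 arrays, with none saturated, and thus had OX17 arrays below 0 and OX7 arrays above 0. PSBP1 (AT1G06680), a further extrinsic protein, stood at -0.50 in OX17 and 0.49 in OX7, with the wild-type channel saturated on OX7 replicate 2.

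The PSBQ pair was less alike. PSBQ1 (AT4G21280; PSBQA in the reference gene table) had log2 ratios of -1.54 and -1.36 on the OX17 arrays and -0.14 and -0.02 on the OX7 arrays, all below 0, with a mean of -0.76 ± 0.97. PSBQ2 (AT4G05180) had -0.45 on the 1 OX17 array with an unflagged spot and 0.27 and 0.37 on the OX7 arrays, and its flagged spot on OX17 replicate 2 read -0.27. The probe for PSBQ1 was thus lower than that for PSBQ2 on every array on which both were measured. Probe sequences were not analysed here, so hybridisation of both transcripts of a pair to one probe was not tested.

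The lowest mean of all 38 members belonged to PSB28 (AT4G28660), a protein associated with photosystem II assembly, at -0.94 ± 0.72. Its log2 ratios were -1.45 on the 1 OX17 array with an unflagged spot and -0.53 and -0.33 on the OX7 arrays, and the flagged spot on OX17 replicate 1 read -1.52. PSB27 (AT1G03600), which assists assembly of the manganese cluster, had -0.94 and -1.07 on the OX17 arrays and 0.0176 and 0.27 on the OX7 arrays. Both assembly genes were 2-fold or more lower in OX17, and PSB28 was also below 0 in OX7 while PSB27 was not. PSBX (AT2G06520), a small membrane subunit, had -0.81 on the 1 OX17 array with an unflagged spot and 0.35 and 0.14 on the OX7 arrays, with -0.49 at its flagged spot on OX17 replicate 1. PSBY, another small subunit, stood at -0.63 in OX17 and 0.15 in OX7.

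Between the photosystems, all 6 electron transport members tested were below 0 on both OX17 arrays, with a median of -0.88 in OX17 and 0.14 in OX7. PETC (AT4G03280), the Rieske protein, had log2 ratios of -1.05 and -0.67 on the OX17 arrays and -0.23 and -0.19 on the OX7 arrays. It was below 0 on all 4 arrays with the lowest mean of these genes, -0.54 ± 0.46 (limma adjusted p = 0.846). The plastocyanin genes had a wider gap. PETE1 (AT1G76100) had -1.06 and -1.06 on the OX17 arrays and 0.76 and 0.16 on the OX7 arrays. PETE2 (AT1G20340; DRT112 in the reference gene table), had -0.85 and -0.94 on the OX17 arrays and 0.74 and 0.68 on the OX7 arrays, with 2 wild-type spots saturated. Both plastocyanin genes were about 2-fold lower in OX17 and read above 0 in OX7, where the sign of PETE2 on replicate 2 is not fixed. The widest transformant gap of the list was that of PETE2, at -1.60. That rank rests in part on the saturated spots of PETE2. Among members without a saturated spot the widest gap was that of LHCA6, at -1.56.

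The ferredoxin paralogues differed from each other. FD2 (AT1G60950), the main ferredoxin of leaves, had log2 ratios of -0.85 and -1.15 on the OX17 arrays and 0.49 and 0.23 on the OX7 arrays. FD1 (AT1G10960), the minor leaf isoform, had -0.23 and -0.43 on the OX17 arrays and -0.23 and -0.40 on the OX7 arrays. FD1 had the smallest gap of all members between the transformants, -0.0178, with a mean of -0.32 ± 0.0126, an unadjusted limma p of 0.0487 and an adjusted p of 0.846. The OX17 and OX7 arrays overlapped for FD1 and not for FD2. PGR5 (AT2G05620), needed for cyclic electron flow around photosystem I, stood at -0.32 in OX17 and -0.08 in OX7.

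FNR1 (AT5G66190) and FNR2 (AT1G20020), the leaf reductases that pass electrons from ferredoxin to NADP, did not enter the test because of their flagged spots. With flagged spots kept, FNR1 had log2 ratios of -0.948 and -0.998 on the OX17 arrays, where its spots were not flagged, and -0.46 and -0.11 on the OX7 arrays. FNR2 had -0.88 and -1.14 on the OX17 arrays and -0.18 and -0.13 on the OX7 arrays, and 3 of its 4 spots were flagged. Both genes were below 0 on all 4 arrays and lower in OX17.

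All 3 plastid ATP synthase members were below 0 on both OX17 arrays and on either side of 0 in OX7. ATPD (AT4G09650), the delta subunit of the catalytic part, had log2 ratios of -1.39 and -1.27 on the OX17 arrays and -0.06 and 0.18 on the OX7 arrays. ATPG (AT4G32260; PDE334 in the reference gene table), a subunit of the peripheral stalk, had -0.40 and -0.58 on the OX17 arrays and 0.06 and -0.09 on the OX7 arrays. The gap between transformants was wider for ATPD, at -1.39, than for ATPG, at -0.48. ATPC1, the gamma subunit, stood at -0.56 in OX17 and -0.04 in OX7.

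LHCA1 to LHCA4 form the antenna belt of photosystem I, and LHCA5 and LHCA6 are scarce relatives that link photosystem I to the chloroplast NADH dehydrogenase-like (NDH) complex. LHCA1 (AT3G54890) had log2 ratios of -0.04 and -0.34 on the OX17 arrays and 0.58 and 0.85 on the OX7 arrays, with the spot of OX7 replicate 2 saturated in both channels. LHCA4 (AT3G47470), its partner in the belt, had -0.0143 and -0.00261 on the OX17 arrays and 0.78 and 0.67 on the OX7 arrays, with 1 saturated wild-type spot and the highest mean of the antenna genes, 0.36 ± 0.52. Both genes read higher on all OX7 arrays than on all OX17 arrays. For LHCA1 this rests on OX7 replicate 1, since 0.85 is the loess correction at the top of the scale. The saturated spot of LHCA4 was on OX7 replicate 2, and LHCA4 in OX17 was level with wild type. LHCA2 (AT3G61470) had -1.03 and -0.66 on the OX17 arrays and 0.10 and 0.27 on the OX7 arrays. LHCA3 (AT1G61520), which pairs with LHCA2, had -0.42 and -0.30 on the OX17 arrays and 0.26 and 0.48 on the OX7 arrays, with 1 saturated wild-type spot. LHCA2 and LHCA3 were below 0 on both OX17 arrays and read above 0 on both OX7 arrays. The saturated spot of LHCA3 was on OX7 replicate 2, so its sign there is not fixed.

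The 2 NDH-linked antenna genes stood apart from LHCA1 and LHCA4. LHCA5 (AT1G45474) had log2 ratios of -0.58 and -0.81 on the OX17 arrays and -0.23 and -0.23 on the OX7 arrays, below 0 on all 4 arrays. LHCA6 (AT1G19150) had -1.60 and -1.34 on the OX17 arrays and -0.06 and 0.24 on the OX7 arrays, the lowest OX17 mean of all members at -1.47. Neither had a saturated spot. The difference of OX17 minus OX7 was -1.56 for LHCA6 and -0.47 for LHCA5.

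Signals of the separate channels were compared as well. For 35 members with unflagged spots on all 4 arrays, signals were compared between OX17 and OX7 arrays of the same dye orientation and averaged. The TaSK5 channel had lower signal in OX17 than in OX7 for 32 of the 35, where 50.2% of all genes did, with a median difference of -0.57 log2. The exceptions were ATPG, PGR5 and PSBO1, with differences of 0.41, 0.09 and 0.01. The wild-type channel was higher on the OX17 arrays than on the OX7 arrays for 20 of the 35, where 46.8% of all genes were, with a median of 0.15. LHCA6 differed by -1.90 in the TaSK5 channel and by -0.33 in the wild-type channel. FD2 differed by -0.49 in the TaSK5 channel and by 0.87 in the wild-type channel. In 13 of the 35 members the wild-type channel difference was the larger of the 2 in size, as it was in 8321 of 18439 genes. Of these members, 9 had a saturated spot, whose channel values are capped. The other 4 were PSAN, FD2, PGR5 and ATPG. The wild-type channel read higher on the OX17 arrays for all 12 members with a saturated spot and for 8 of the 23 without one. For the 12 neither size nor direction is fixed, since all were capped in that channel on OX7 replicate 2. Of these, 3 were capped in it on all 4 arrays. For those 23 the median difference was -0.94 in the TaSK5 channel and -0.04 in the wild-type channel.

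**Figure D2:**
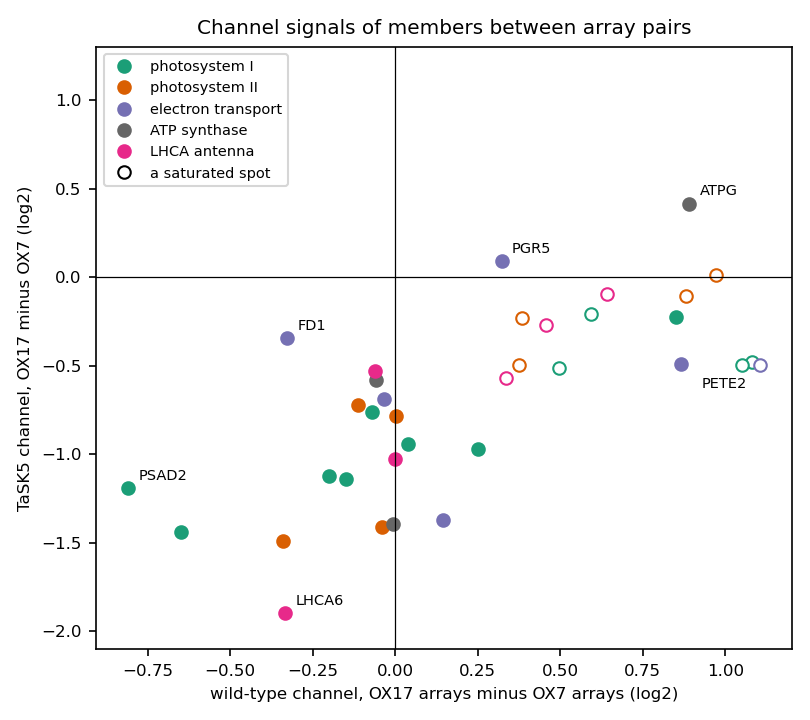
Difference between OX17 and OX7 arrays in log2 signal of the wild-type channel (x axis) and of the TaSK5 channel (y axis) for 35 members, coloured by complex, with open symbols for genes with a saturated spot. Most points lie below 0 on the y axis. All 12 genes with a saturated spot lie right of 0 on the x axis, where their capped values do not fix the direction.

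Member probes were among the brightest of the array. Of the 189 genes in the brightest 1%, 30 were members. The ratio of members went up with brightness in both transformants, with a Spearman correlation of 0.43 in OX17 and 0.72 in OX7 over 38 members. Over the 26 without a saturated spot it was 0.12 in OX17 and 0.19 in OX7. All points share the same arrays and their loess curves. The 12 members with a saturated spot had a median of 0.69 in OX7, and all 12 read above 0 on both arrays. All 12 were saturated in the wild-type channel on OX7 replicate 2, so their sign on that array is not fixed. The 26 without one had a median of 0.19, and 16 were above 0 on both OX7 arrays. In OX17 the medians were -0.25 for the 12 and -0.69 for the 26, of which 9 and 22 were below 0 on both arrays. The other 159 genes of the brightest 1% had medians of -0.10 in OX17 and 0.03 in OX7, and 56.6% of them were lower in OX17 than in OX7.

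**Figure D3:**
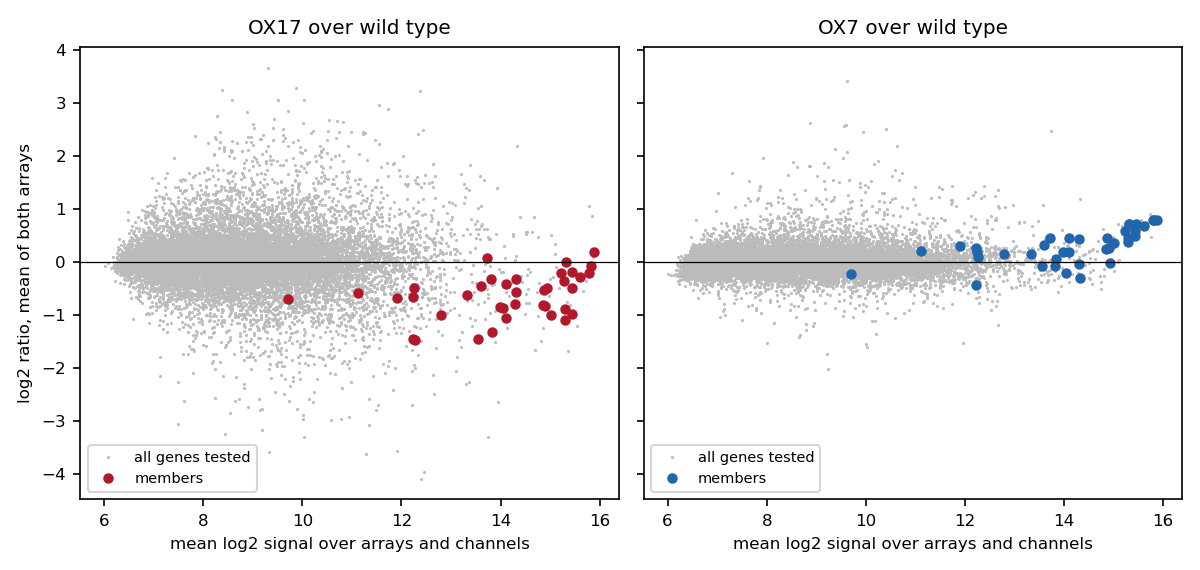
Mean log2 ratio of both arrays (y axis) against mean log2 signal (x axis) for all 18854 genes tested (grey) and the 38 members (coloured), in OX17 on the left and OX7 on the right. The members sit at the bright end, below 0 for 36 members in OX17 and mostly above 0 in OX7. Among members, the highest ratio in each transformant belongs to a gene saturated in both channels on 3 arrays.

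The member median in OX17 was below 0 under every processing alternative, and that in OX7 was not above 0 under all of them. Relative to the median of all genes, the member median in OX17 lay between -0.85 and -0.44. In OX7 it lay between 0.03 and 0.41, with the lowest values under median centring and without normalisation, the settings that do not correct the dye bias by brightness. With median centring, the OX7 medians of members were 0.19 on replicate 1 and -0.17 on replicate 2, and 10 members were above 0 on both OX7 arrays. The OX17 medians in that setting were further apart, at -0.46 on replicate 1 and -1.34 on replicate 2. Without normalisation, the OX17 medians were 0.04 on replicate 1 and -2.02 on replicate 2, so the dye orientations disagreed there, and 3 members had OX17 arrays all below their OX7 arrays. With the authors' deposited log2 ratios, 21 members were above 0 on both OX7 arrays and 28 were below 0 on both OX17 arrays. Members whose OX17 arrays all lay below their OX7 arrays numbered 28 with median centring and 33 with the deposited ratios. For all genes this share was counted only under the reported processing, at 26.0%. The shares below or above 0 on both arrays of a transformant were also counted only there. Whether the member counts under other settings depart from all genes was thus not tested.

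**Figure D4:**
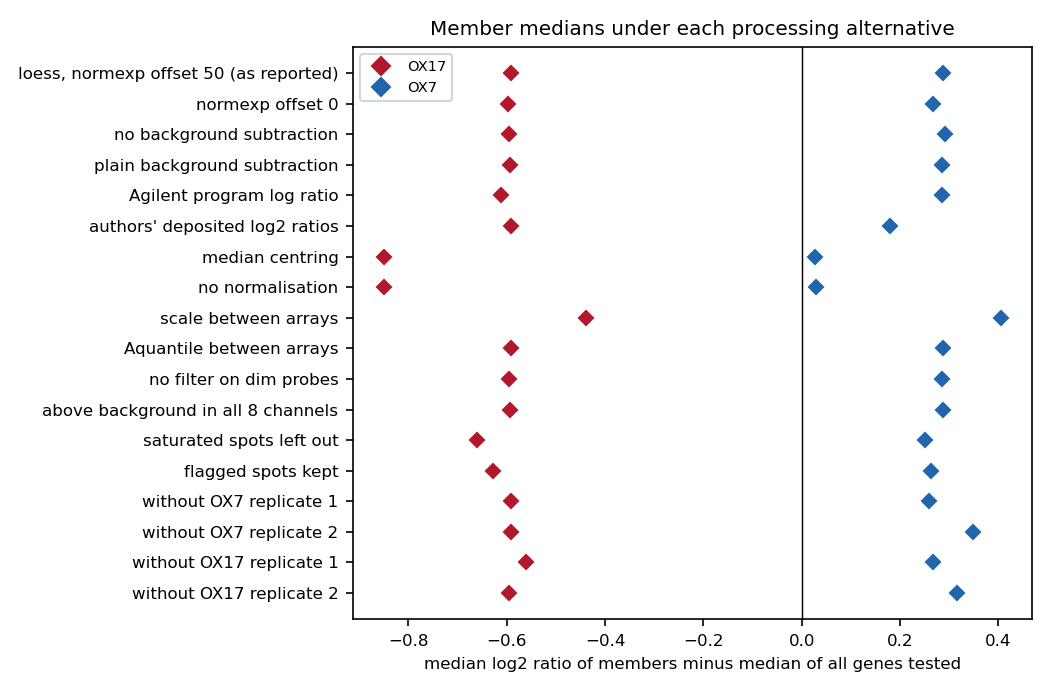
Median log2 ratio of the members minus the median of all genes tested (x axis) in OX17 (red) and OX7 (blue) under the reported processing and each alternative (y axis). The OX17 medians stay between -0.85 and -0.44, and the OX7 medians approach 0 under the settings without loess.

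Other genes of the photosynthetic apparatus were set beside these, from lists written with earlier results of these data known. In a list of 37 further thylakoid genes (NDH complex subunits, cyclic flow proteins, assembly factors and state transition kinases), 34 had a probe and 0 passed the test. The median over the 34 was -0.66 in OX17 and -0.12 in OX7, with 26 below 0 on both OX17 arrays and 8 above 0 on both OX7 arrays. On all 4 arrays 14 were lower and 1 was higher. Their largest means in size belonged to PNSL2 (AT1G14150), a subunit of the NDH complex, and LQY1 (AT1G75690), a thylakoid protein of photosystem II repair. PNSL2 had log2 ratios of -1.13 in OX17 and -0.30 in OX7. LQY1 had -1.45 on the 1 OX17 array with an unflagged spot and a mean of 0.03 in OX7.

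Of the 9 major LHCII genes 0 passed. LHCB1.1, LHCB1.2 and LHCB1.5 had 6 saturated readings each, and the OX7 median of the list fell on LHCB1.5 (AT2G34420), so no median or ratio is given for it. The 5 genes without a saturated spot had means from -3.31 to 0.09 in OX17 and from 0.18 to 2.48 in OX7, and all 5 were lower in OX17. LHCB2.3 (AT3G27690) stood at -2.50 in OX17 and 1.36 in OX7. The minor antenna list of 6 genes, 3 of them with a saturated spot, had medians of -0.72 in OX17 and 0.55 in OX7, with LHCB4.3 (AT2G40100) at -1.38 in OX17 and -1.36 in OX7 and PSBS (AT1G44575) at -0.81 in OX17 and -0.20 in OX7, and 0 passed. The 17 Calvin cycle genes, 7 of them with a saturated spot, had medians of -0.73 in OX17 and -0.07 in OX7, with 13 below 0 on both OX17 arrays and 0 passing. RBCS2B (AT5G38420), a Rubisco small subunit gene measured on 2 arrays and with 1 saturated wild-type reading, stood at -1.49 in OX17 and -0.13 in OX7. GAPB (AT1G42970), of the Calvin cycle, stood at -1.02 in OX17 and -0.37 on the 1 OX7 array with an unflagged spot. Means were lower in OX17 than in OX7 for all 10 Calvin cycle, all 3 minor antenna and 28 of the 34 other thylakoid genes without a saturated spot. No test of a difference between the lists was run.

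**Figure D5:**
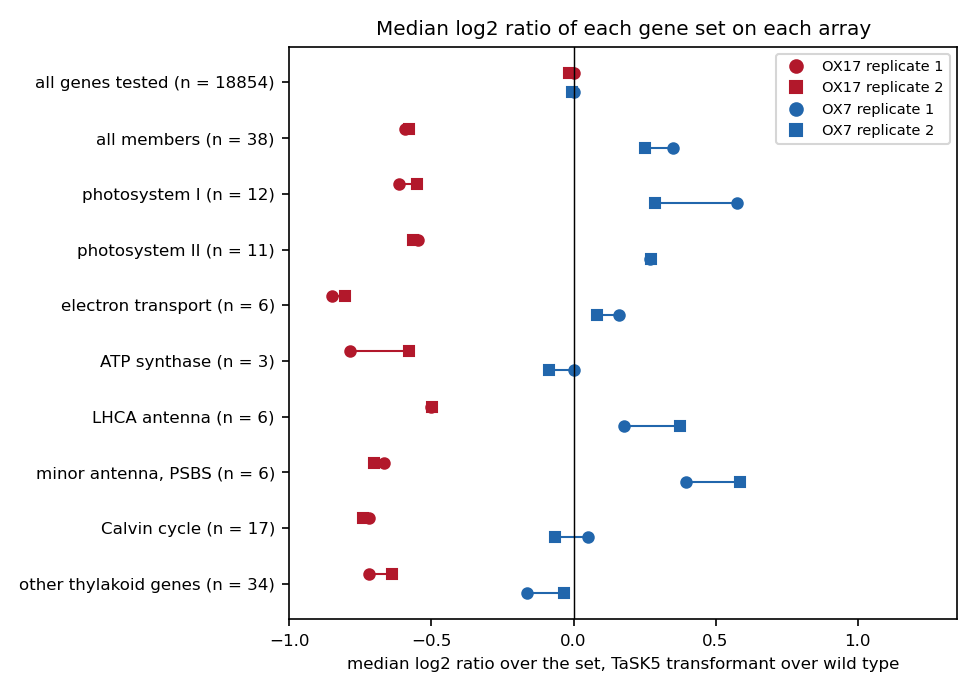
Median log2 ratio over each gene set (x axis) on each array, with OX17 in red and OX7 in blue, replicate 1 as circles and replicate 2 as squares; the number of genes tested stands beside each set (y axis). All genes together have medians near 0, and every photosynthesis set shown has lower medians in OX17 than in OX7. The photosystem II median on OX17 replicate 1 falls on a spot saturated in both channels.

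Markers of leaf senescence were also read. Of 6 senescence markers, 4 were above 0 on both OX17 arrays and 4 on both OX7 arrays, and their median was 0.97 in OX17 and 0.30 in OX7. SAG13 (AT2G29350), a gene induced in ageing leaves, stood at 2.88 on the 1 OX17 array with an unflagged spot and averaged 1.18 in OX7, and NAP (AT1G69490), a NAC transcription factor of leaf senescence, at 2.49 in OX17 and 0.41 in OX7. SEN1 (AT4G35770), a dark-inducible senescence gene, ran the other way, at 0.53 in OX17 and 1.62 in OX7. SAG12 (AT5G45890), a late senescence protease gene, stood at 0.07 in OX17 and 0.05 in OX7. SEN1 and SAG12 were named after their values were seen. The 7 leaf markers, some of which are also in the Calvin cycle list, had medians of -0.56 in OX17 and -0.16 in OX7, and 3 of them had a saturated spot. CA1 (AT3G01500), a carbonic anhydrase named after its values were seen, stood at -2.31 in OX17 and -0.32 in OX7. The 4 guard cell markers had medians of -0.47 in OX17 and -0.01 in OX7, the 5 root markers tested had -0.08 in OX17 and 0.06 in OX7, and the 4 flower markers had -0.04 in OX17 and -0.10 in OX7. The part of these markers' cells or states in the member values was not tested.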

How the data were processed

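Members, comparison lists and tests were chosen with earlier results of these data known. Per the file headers, Agilent Feature Extraction 7.5.1 gave mean and local background intensity per spot and channel, and a log10 ratio of Cy5 over Cy3 after spatial detrending and a dye normalisation with lowess settings. The authors deposited log2 ratios of Cy5 over Cy3, for which the submitters' processing notes name limma; no source used here gives their background correction or centring. The log2 columns had medians of -0.00543 (OX17 replicate 1), 0.00486 (OX17 replicate 2), -0.00408 (OX7 replicate 1) and 0.00358 (OX7 replicate 2), and their correlation with the loess ratios was 0.992 to 0.998.

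With limma 3.58.1 in R 4.3.3, intensities were corrected by normexp (offset 50), normalised within arrays by loess (1075 control spots had no weight) and turned to transformant over wild type. Outlier-flagged spots were left out (145 and 173 on the OX17 arrays, 60 and 144 on the OX7 arrays) and saturated spots kept. Probes well above background in all 4 TaSK5 or all 4 wild-type channels were kept. The mean ratio of each transformant entered a two-sided test against 0 (lmFit, eBayes, 1 residual and 2.00 prior degrees of freedom, Benjamini-Hochberg over 18854 genes, threshold 0.05), which was tested on simulated data. Channel signals used loess and Aquantile. The number of arrays limits the precision. Replicate numbers mark dye orientation and pair no plants. Names come from a TAIR10.1 gene table that held 21191 of 21500 loci; no probe build is named, so no coordinates are given.

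Array values are given for paralogous pairs, LHCA genes, the highest and lowest mean of each complex, members of the same sign on all 4 arrays with a mean of size 0.5 or more, and members whose arrays do not overlap between transformants and differ by 1 or more; other members are given by means or counts. In each comparison list the 2 genes with the largest mean in size are named.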

Additional observations from a re-analysis of the deposited data

Results flagged for a closer look

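For 22 of the 38 members both OX17 arrays were below 0 and both OX7 arrays above 0, where 16.9% of all genes had the arrays of one transformant above 0 and those of the other below it. The difference between the transformants was not tested. PSBO1 rests on saturated spots on both OX17 arrays. On OX7 replicate 2 the wild-type channel was saturated for PSAD1, PSAG, PSAK, PSBO1, PSBP1, PETE2, LHCA1, LHCA3 and LHCA4. Their signs on that array are not fixed, and LHCA1 was saturated there in both channels. The mean log2 ratios, given for OX17 and then OX7, were -0.22 and 0.59 for PSAD1, -0.79 and 0.43 for PSAE1, -0.69 and 0.31 for PSAE2, -0.98 and 0.58 for PSAG, -0.66 and 0.26 for PSAH1, -0.58 and 0.21 for PSAH2, -1.09 and 0.45 for PSAK, -0.50 and 0.19 for PSAL, -0.82 and 0.25 for PSAN and -0.54 and 0.44 for PSAO in photosystem I. In photosystem II they were -0.29 and 0.67 for PSBO1, -0.42 and 0.19 for PSBO2, -0.50 and 0.49 for PSBP1, -0.63 and 0.15 for PSBY and -1.004 and 0.14 for PSB27. In electron transport they were -1.06 and 0.46 for PETE1, -0.90 and 0.71 for PETE2 and -0.997 and 0.36 for FD2, and among the antenna genes -0.19 and 0.71 for LHCA1, -0.85 and 0.18 for LHCA2, -0.36 and 0.37 for LHCA3 and -0.00846 and 0.72 for LHCA4. The ATP synthase genes had none. The groups of 2 arrays allowed no test for outlying samples.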

How the results depend on the processing

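Across 22 other settings of background, normalisation, filters, model and arrays, 0 members passed the limma test in all but 1, and 4 passed without normalisation (PSBQ1, PSBX, PSB28 and ATPD), where the median of all genes moved to -0.315. Over all genes, 0 passed in the reported test, 264 without normalisation, 79 with the 4 arrays taken as independent, 48 with the transformant as a random block and 1 with the replicate block. Members lower on all arrays numbered 7 with a normexp offset of 0, 7 with the deposited ratios, 7 with flagged spots kept, 13 with median centring and 14 without normalisation, and 4 to 7 when an array was left out. Over all genes the shares were, in the same order, 12.0%, 12.1%, 12.3%, 10.2% and 6.66%, and 14.0% to 21.0% when an array was left out. Members higher on all arrays numbered 1 with the deposited ratios and 0 to 3 when an array was left out, where 12.1% and 13.8% to 19.1% of all genes were. With the replicate number as a replicate block over the 4 arrays, 0 members passed, with adjusted p of at least 0.309, and the median stayed at -0.20. Members above 0 on both OX7 arrays numbered 10 with median centring, 0 without normalisation and 16 with saturated spots left out, where a spot left out also ends a count. Without normalisation, 14 were below 0 on both OX17 arrays and 3 had OX17 arrays all below OX7 arrays. The shares of all genes for these counts by transformant were not taken under the other settings. The OX17 median was -0.63 with the program's log ratios, -0.86 with median centring, -0.96 without normalisation, -0.45 with scaling between arrays, -0.67 without saturated spots, -0.64 with flagged spots kept, -0.66 without the 3 saturated members (chosen after seeing the data) and -0.60 to -0.58 when an array was left out. The OX7 median was 0.18 with the deposited ratios, -0.0218 with median centring, -0.55 without normalisation and 0.40 with scaling. Over all genes the OX7 median was -0.0497 with median centring and -0.58 without normalisation. Without normalisation the medians were -0.73 for photosystem II, -0.92 for ATP synthase and -0.77 for the antenna genes. The cause of these changes was not tested. Saturation and a single plant per transformant limit the values.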
